A study of Mus musculus with 6 samples.

Results

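The genes described here are 52 genes of mitosis, of 55536 named genes in the deposited count table, chosen by gene symbol: the spindle assembly checkpoint, the chromosomal passenger complex, the inner and outer kinetochore, mitotic kinases and spindle factors, cytokinesis, sister chromatid cohesion, and condensin with other chromosome proteins. RNA came from C57BL/6 mice of 8 weeks and was sequenced as 6 libraries, 1 for each group. BM was bone marrow cells, labelled control. M-BMDM and GM-BMDM were marrow cells after 7 days of M-CSF or GM-CSF, labelled control. M-BMDM_3h, M-BMDM_24h and GM-BMDM_3h were the same 2 kinds of culture treated with IL6 for 3 h or 24 h. GM-BMDM with 24 h of IL6 was not analysed here, the 24 h library is compared with M-BMDM labelled control, which has no time of its own, and the labels do not say whether libraries came from the same animals or cultures. With 1 library a group, a ratio between libraries has counting error but no replicate error, and a difference between conditions cannot be told apart from a difference between cultures.

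Mitosis separates duplicated chromosomes. The kinetochore is a protein assembly built on each centromere: its inner layer holds the centromeric nucleosome, its outer layer binds spindle microtubules, and the checkpoint proteins on it delay anaphase until all chromosomes are attached. Condensin compacts the chromosomes, cohesin holds the sister chromatids together until separase cuts it, and the cytokinesis proteins divide the cell. Most of these genes are transcribed in a burst in G2 and mitosis. Their promoters are known for the CHR element, bound by the MuvB complex, and for CCAAT boxes, bound by NF-Y. M-CSF and GM-CSF are growth factors that drive both the division and the differentiation of macrophage precursors in marrow culture.

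Promoter sequences are shown for 7 members as examples, and no link between sequence and level was tested. Zwint is shown because it did not move with most members. Pttg1 did not either and is not shown. The first 6 were picked, after the sequences had been seen, from the 10 of 44 members that hold a CHR within 120 bases before a start. Bub3, which moved in a much narrower range, is also among the 10 and is not shown. The other 34 hold none there, among them Zwint, Pttg1 and members that moved with the rest, such as Bub1, Birc5, Nuf2 and Ndc80. Some of the 34 hold a CHR after the start instead, as Ndc80 does at base 30 counted from the start. Each stretch is the 120 bases before the RefSeq transcription start in build GRCm38.p6, written 5′ to 3′ in the direction of the gene, and capitals mark CHR (TTTGAA, or TTCAAA on the other strand) and CCAAT (or ATTGG on the other strand). Top2a, which encodes the topoisomerase that untangles sister chromatids, has its stretch at chr11:99024190-99024309 (minus strand). Mki67, the chromosome surface protein used as a proliferation marker, has its stretch at chr7:135716380-135716499 (minus strand). The stretch of Ncapg, a condensin subunit, is chr5:45669805-45669924 (plus strand). That of Espl1, separase, is chr15:102296173-102296292 (plus strand). For Cenpn, an inner kinetochore protein that reads the centromeric nucleosome, it is chr8:116921620-116921739 (plus strand). For Ect2, which activates RhoA at the cleavage furrow, it is chr3:27153879-27153998 (minus strand), and the stretch of its other RefSeq start holds no CHR. Zwint, a partner of the outer kinetochore scaffold Knl1, has chr10:72654726-72654845 (plus strand).
Top2a: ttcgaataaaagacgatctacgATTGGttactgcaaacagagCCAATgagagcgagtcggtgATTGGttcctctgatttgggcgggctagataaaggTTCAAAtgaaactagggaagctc
Mki67: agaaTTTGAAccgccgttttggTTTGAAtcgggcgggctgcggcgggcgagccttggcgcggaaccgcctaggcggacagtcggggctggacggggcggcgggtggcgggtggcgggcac
Ncapg: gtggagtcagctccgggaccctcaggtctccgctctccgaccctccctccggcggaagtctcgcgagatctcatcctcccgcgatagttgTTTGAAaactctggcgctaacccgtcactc
Espl1: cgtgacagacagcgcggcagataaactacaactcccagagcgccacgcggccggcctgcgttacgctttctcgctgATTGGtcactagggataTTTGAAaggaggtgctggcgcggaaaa
Cenpn: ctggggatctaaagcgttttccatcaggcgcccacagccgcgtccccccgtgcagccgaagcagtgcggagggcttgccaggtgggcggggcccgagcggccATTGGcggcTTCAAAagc
Ect2: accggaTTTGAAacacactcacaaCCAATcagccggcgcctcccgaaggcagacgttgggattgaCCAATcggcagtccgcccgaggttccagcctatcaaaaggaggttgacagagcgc
Zwint: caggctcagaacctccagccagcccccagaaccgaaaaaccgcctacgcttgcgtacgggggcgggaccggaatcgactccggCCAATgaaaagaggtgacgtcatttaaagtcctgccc

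RefSeq promoter windows, from 250 bases before to 50 after a start, were found for 44 of the 52 members (50 windows). Aurkb, Cdca2, Esco2, Incenp, Ska1, Smc4, Spc24 and Tpx2 had none in the table used. Windows were searched on both strands for TTTGAA, for CCAAT, and for the E2F patterns TTTGGCGC and TTTCCCGC, none of which contains another. CHR was present in 28 of 50 member windows (56%), against 17.9% of all 32851 windows of that length. CCAAT was present in 76% of member windows against 37.4% of all, and both elements in 46% against 6.95%. An E2F pattern was found in 6% of member windows against 1.56% of all. Of the 35 CHR matches, 28 began no more than 100 bases before the start or after it, and the median position was 5 bases before the start. The matches are not all distinct sites: those of Ect2, Prc1 and Bub3 lie in overlapping windows and were counted in each. The single CHR of the Espl1 window began 27 bases before the start, that of Cenpn 9 before, and that of Ncapg 30 before. Among the 3 members that reached 2-fold neither against BM nor at 24 h of IL6 (below), the Bub3 windows held CHR and CCAAT, the Zwint window CCAAT alone, and the Pttg1 window neither. These are matches of letters, not measured binding.

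The libraries held 18567482 to 24196082 estimated counts each, and mitochondrial genes took 1.70% to 3.15% of them. Levels below are CPM scaled by the trimmed mean of M-values (scaled CPM), and they compare 1 gene between libraries. All 52 members passed the filter of at least 1 CPM in at least 1 library, as did 14719 genes in all. BM and the cultures differed in cell makeup. The 10 erythroid markers summed to 81940 scaled CPM in BM and to between 6.31 and 10.4 in the 5 cultures, and the 8 neutrophil precursor markers to 19840 against 0.817 to 9.08. The 10 B lineage markers summed to 914 against 0.272 to 0.921. The 10 macrophage markers summed to 519 in BM, 9055 in M-BMDM, 10060 in M-BMDM_3h, 7183 in M-BMDM_24h, 3736 in GM-BMDM and 3643 in GM-BMDM_3h.

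The members formed 2 levels, high in BM and M-BMDM_24h and low in the other 4 libraries. Their summed level was 6296 scaled CPM in BM, 1088 in M-BMDM, 1064 in M-BMDM_3h, 6220 in M-BMDM_24h, 1375 in GM-BMDM and 1355 in GM-BMDM_3h. As a share of all counts, this was 0.712% in BM and 0.687% in M-BMDM_24h, and 0.104% to 0.124% in the other 4. For 50 of the 52 members, both BM and M-BMDM_24h lay above all 4 other libraries, a share not counted over all genes. The exceptions were Zwint and Pttg1. The highest library was M-BMDM_24h for 28 members and BM for 22, and the lowest was M-BMDM or M-BMDM_3h for 46. In bulk RNA, fewer cells in mitosis and less RNA of these genes per cell cannot be told apart.

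**Figure D1:**
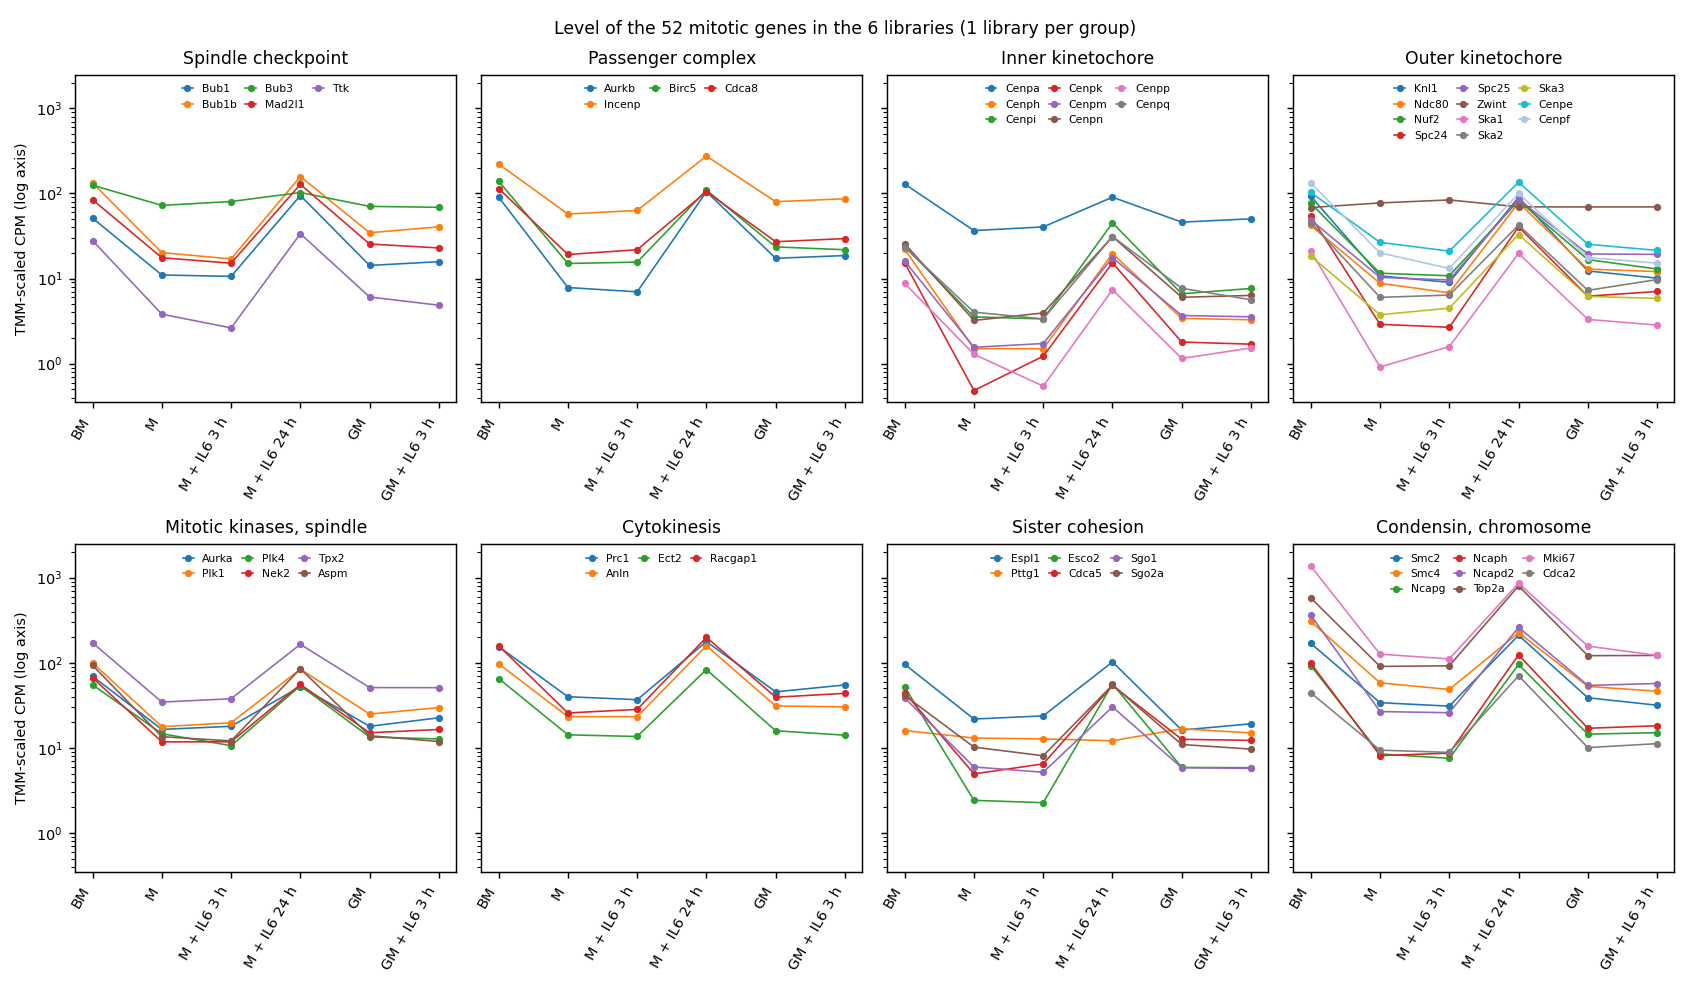
Scaled CPM (log axis) of each of the 52 members in the 6 libraries, 1 panel per functional group; each line is 1 gene and the lines only join libraries for reading. BM and M-BMDM_24h form the 2 peaks in every panel, while Zwint and Pttg1 stay nearly level and Bub3 spans 68.8 to 125.

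All 5 checkpoint genes showed this shape. Bub1b, the BubR1 protein that restrains the anaphase-promoting complex, stood at 133 scaled CPM in BM, 20.2 in M-BMDM, 17.0 in M-BMDM_3h, 158 in M-BMDM_24h, 34.5 in GM-BMDM and 40.6 in GM-BMDM_3h. Bub3, its partner, stood at 125, 72.5, 80.5, 103, 70.6 and 68.8 in the same order. Bub3 thus had the same order of high and low libraries in a much narrower range. The checkpoint kinases Bub1 and Ttk and the checkpoint protein Mad2l1 followed Bub1b, with lowest levels of 10.6, 2.63 and 15.2 and highest levels of 94.7, 33.7 and 128 scaled CPM.

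The chromosomal passenger complex corrects wrong attachments through the kinase Aurkb. Its scaffold Incenp stood at 222 scaled CPM in BM, 57.4 in M-BMDM, 63.2 in M-BMDM_3h, 275 in M-BMDM_24h, 80.1 in GM-BMDM and 86.7 in GM-BMDM_3h. Survivin (Birc5), which brings the complex to centromeres, stood at 139, 15.1, 15.6, 110, 23.6 and 21.8 in that order. Aurkb ranged from 6.99 in M-BMDM_3h to 105 in M-BMDM_24h, and Cdca8 (borealin) from 19.2 in M-BMDM to 114 in BM. All 4 members kept the same separation of BM and M-BMDM_24h from the rest.

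At the inner kinetochore, Cenpa, the histone H3 variant that marks centromeres, stood at 129 scaled CPM in BM, 36.7 in M-BMDM, 40.5 in M-BMDM_3h, 90.5 in M-BMDM_24h, 46.1 in GM-BMDM and 50.4 in GM-BMDM_3h. Cenpi, a subunit of the constitutive centromere network, stood at 23.8, 3.55, 3.36, 45.2, 6.63 and 7.66. The other 6 (Cenph, Cenpk, Cenpm, Cenpn, Cenpp and Cenpq) reached at most 31.2 scaled CPM. Cenpk rested on 9 counts in M-BMDM against 372 in BM, and Cenpp on 12 counts in M-BMDM_3h. Their low levels are known only to within wide counting intervals. Exons of Cenpk and Cenpp overlap those of genes on the opposite strand. Exons of 13 members overlap another gene, and whether counting used strand is not given in the sources used here. For Ncapd2 and Top2a the overlapping genes lie on the same strand, where strand cannot separate them.

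Outer kinetochore genes included the clearest exception. Zwint stood at 68.4 scaled CPM in BM, 77.5 in M-BMDM, 84.0 in M-BMDM_3h, 69.7 in M-BMDM_24h, 69.4 in GM-BMDM and 69.6 in GM-BMDM_3h. The kinesin Cenpe, which carries chromosomes to the spindle equator, stood at 103, 26.7, 21.0, 136, 25.3 and 21.4. The microtubule-binding Ndc80 complex (Ndc80, Nuf2, Spc24, Spc25), the scaffold Knl1, Cenpf and the Ska proteins followed Cenpe in shape. Zwint was the only member whose highest library was M-BMDM_3h. Per kilobase of gene, Zwint was the most abundant member in M-BMDM at 68.1 scaled CPM per kilobase, followed by Bub3 at 32.7, while Birc5 led in BM at 147 and Top2a in M-BMDM_24h at 154.

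Among kinases and spindle factors, Tpx2, which activates Aurka and nucleates microtubules, stood at 172 scaled CPM in BM, 34.6 in M-BMDM, 37.8 in M-BMDM_3h, 165 in M-BMDM_24h, 51.1 in GM-BMDM and 51.0 in GM-BMDM_3h. Plk1, the polo kinase of mitotic entry and exit, stood at 99.7, 17.7, 19.7, 84.1, 25.0 and 29.8. In all 6 genes of the group, BM was higher than M-BMDM_24h. The reverse order held for the 4 cytokinesis genes. Racgap1, a subunit of centralspindlin, stood at 159, 25.7, 28.3, 199, 39.4 and 43.8. Prc1, which bundles the midzone microtubules, stood at 155, 39.9, 36.9, 177, 45.6 and 54.9.

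Sister cohesion genes split. Espl1 (separase) stood at 95.9 scaled CPM in BM, 21.8 in M-BMDM, 23.8 in M-BMDM_3h, 102 in M-BMDM_24h, 16.2 in GM-BMDM and 19.2 in GM-BMDM_3h. Sgo2a, a shugoshin that shields centromeric cohesin, stood at 41.3, 10.2, 8.08, 54.8, 11.0 and 9.68. The acetyltransferase Esco2 went from 51.9 in BM to 2.42 in M-BMDM and back to 56.4 in M-BMDM_24h. In contrast, Pttg1 (securin, the inhibitor of separase) stayed between 12.1 in M-BMDM_24h and 16.8 in GM-BMDM.

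Condensin and chromosome genes had the highest summed scaled CPM of the 8 groups in every library. This sum is not divided by gene length, so long genes such as Mki67 (10061 bases) weigh more in it. It does not rank the groups by abundance. Mki67 stood at 1369 scaled CPM in BM, 126 in M-BMDM, 111 in M-BMDM_3h, 860 in M-BMDM_24h, 157 in GM-BMDM and 122 in GM-BMDM_3h. Top2a stood at 578, 90.7, 92.2, 801, 121 and 122. These genes differed in which of the 2 high libraries was higher: BM for Mki67, M-BMDM_24h for Top2a. The condensin subunit Ncapd2 stood at 362, 26.7, 25.9, 261, 54.2 and 57.1. The condensin ATPases Smc2 and Smc4 were lowest at 31.0 and 46.4 scaled CPM and highest at 210 and 307.

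The first comparison is between cultured macrophages and uncultured bone marrow cells. In M-BMDM, 49 of the 52 members were counted lower than in BM and none higher, where counted means a ratio of at least 2-fold, a 95% exact binomial interval that excludes 1, and at least 5 scaled CPM in the higher library. Over all 14719 genes, 17.6% were counted lower. The members' median log2 ratio was -2.60, against -0.07 for all genes, where list medians use a prior count of 2. Of the members, 44 were at least 4-fold and 14 at least 8-fold lower. The shares of all genes at the 4-fold and 8-fold limits are not given here. The most negative log2 ratios were those of Cenpk (-4.99, interval -6.13 to -4.05), Ska1 (-4.53), Esco2 (-4.42) and Spc24 (-4.21). The members not counted were Zwint (0.18, interval 0.08 to 0.28), Pttg1 (-0.29, interval -0.53 to -0.06) and Bub3 (-0.79, interval -0.88 to -0.69).

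GM-BMDM gave the same count. Again 49 members were counted lower than in BM and none higher, beside 17.2% of all genes counted lower. The median was smaller in size, -2.09, against -0.10 for all genes. At least 4-fold lower were 32 members, again without a share of all genes at that limit. Esco2 (-3.14), Mki67 (-3.12) and Spc24 (-3.12) had the most negative log2 ratios, and Zwint (0.02), Pttg1 (0.07) and Bub3 (-0.83) were again not counted. Both comparisons use the same BM library. With total counts in place of the trimmed mean, every log2 ratio to BM moved by -0.17 for M-BMDM and by -0.33 for GM-BMDM, which turned Zwint and Pttg1 below 1 in GM-BMDM. Erythroid, neutrophil precursor and B lineage markers moved with this contrast, by the sums given above, and their part in the members' ratios was not tested.

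**Figure D2:**
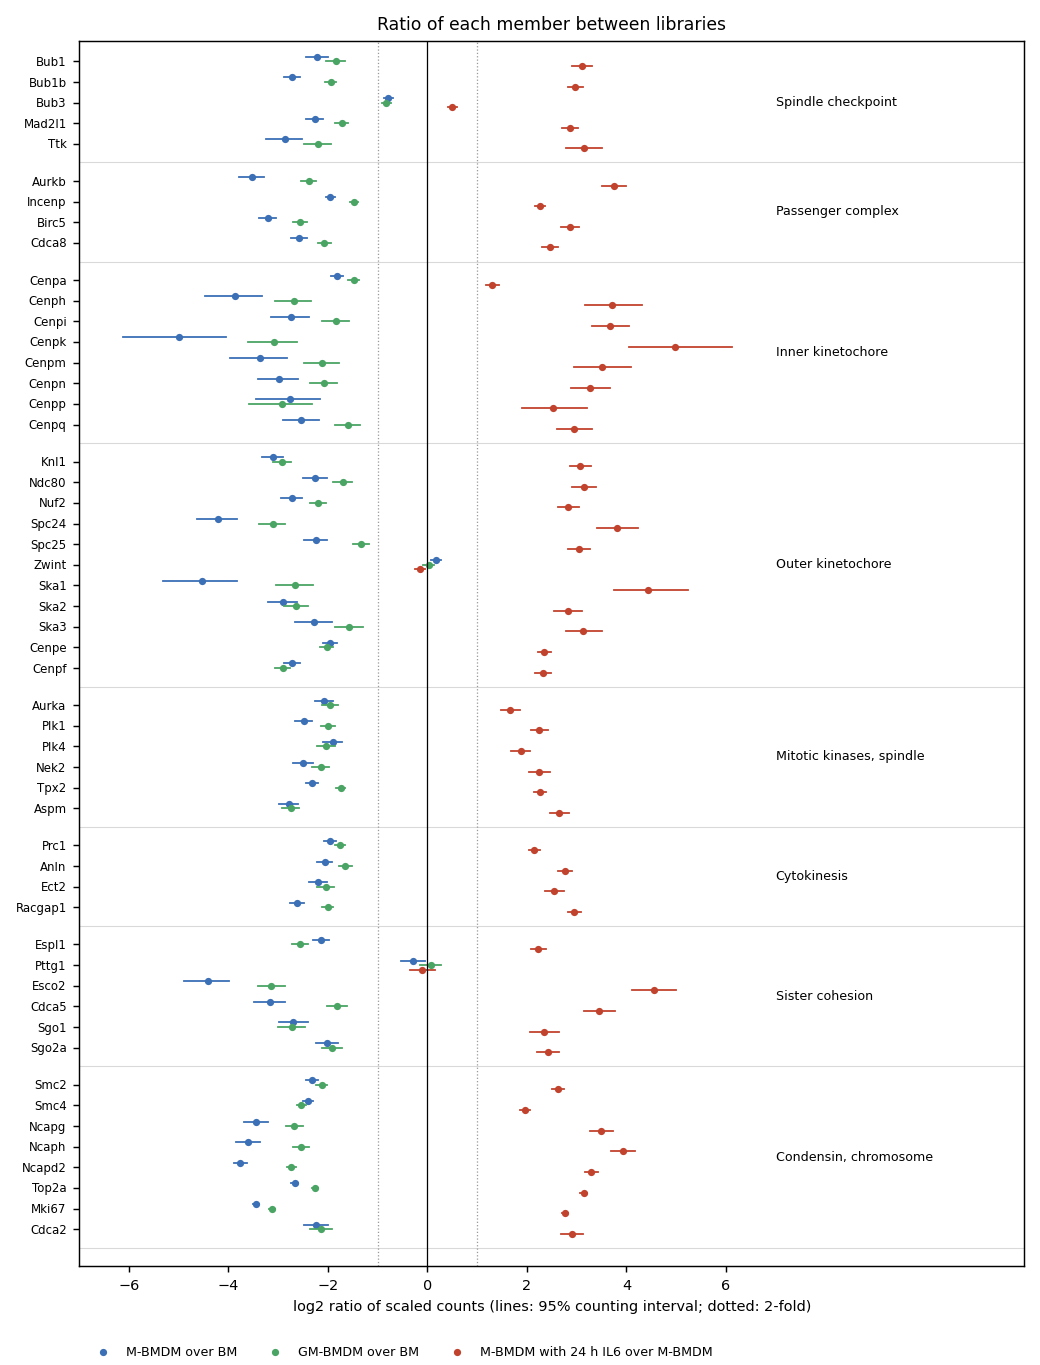
Log2 ratio (x axis) of each member, with its 95% counting interval as a line, for M-BMDM over BM (blue), GM-BMDM over BM (green) and M-BMDM_24h over M-BMDM (red); dotted lines mark 2-fold. In each of the 3 comparisons 49 of 52 members lie beyond 2-fold, with Bub3, Zwint and Pttg1 inside.

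The second comparison sets M-CSF cultures after 24 h of IL6 against those without. In M-BMDM_24h, 49 of 52 members were counted higher than in M-BMDM and none lower, beside 8.06% of all genes counted higher. The median log2 ratio was 2.84, against 0 for all genes. Of the members, 45 were at least 4-fold and 20 at least 8-fold higher, without shares of all genes at these limits. The largest log2 ratios were those of Cenpk (4.98, interval 4.04 to 6.12), Esco2 (4.54, interval 4.12 to 5.01) and Ska1 (4.44, interval 3.74 to 5.23). Cenpa had the smallest counted ratio, 1.30. Bub3 (0.50, interval 0.41 to 0.60), Pttg1 (-0.11, interval -0.36 to 0.15) and Zwint (-0.15, interval -0.26 to -0.05) were not counted, and Pttg1 turned above 1 with total counts.

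Every functional group was higher at 24 h in its median. The inner kinetochore had the largest median log2 ratio (3.33), followed by the outer kinetochore (3.04), condensin and chromosome proteins (3.02), the checkpoint (2.96), the passenger complex and cytokinesis (2.65 each), cohesion (2.37) and kinases and spindle factors (2.24). Against M-BMDM_3h in place of M-BMDM, 49 members were also counted higher, beside 8.18% of all genes. The 10 macrophage markers summed to 7183 scaled CPM in M-BMDM_24h against 9055 in M-BMDM. Their median log2 ratio was -0.04, with 5 ratios above 1 and 5 below. Of these markers, Cd14 was counted lower (530 against 1508 scaled CPM) and Mertk higher (48.3 against 7.69). Markers of the marrow lineages that divide stayed near 0: the erythroid list summed to 9.39 scaled CPM with Slc4a1 among those at 0 counts, the neutrophil precursor list to 0.831 with Ctsg, Elane and Fcnb at 0, and the B lineage list to 0.831 with 6 of 10 at 0. Stem and progenitor markers summed to 41.1 in M-BMDM_24h against 19.8 in M-BMDM and 362 in BM. Of these 8, Cd34 alone was counted higher (31.3 against 6.72), none was counted lower, and Flt3 was at 0. The median log2 ratio of this list was 0.01, with 4 ratios above 1 and 3 below, the lowest -3.80. The part of any stem or progenitor cells in the result was not tested.

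M-BMDM_24h came close to BM, the other high library. None of the 52 members was counted higher or lower, although 13.1% of all genes were counted higher and 13.5% lower between these libraries. The median log2 ratio was 0.10, and the members ranged from -0.67 (Mki67) to 0.92 (Cenpi). Counting error was small at these depths: intervals lay above 1 for 26 members and below 1 for 15, without a share over all genes to set beside them. Cenpi, Ndc80 (0.88), Bub1 (0.88), Ska3 (0.84) and Spc25 (0.80) were the highest, while Mki67, Cenpa (-0.51), Ncapd2 (-0.47) and Smc4 (-0.44) were the lowest. The kinase and spindle group had a median of -0.19 with 6 of 6 below 1, and the cytokinesis group 0.34 with 4 of 4 above 1. This comparison was added after the levels had been seen.

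**Figure D3:**
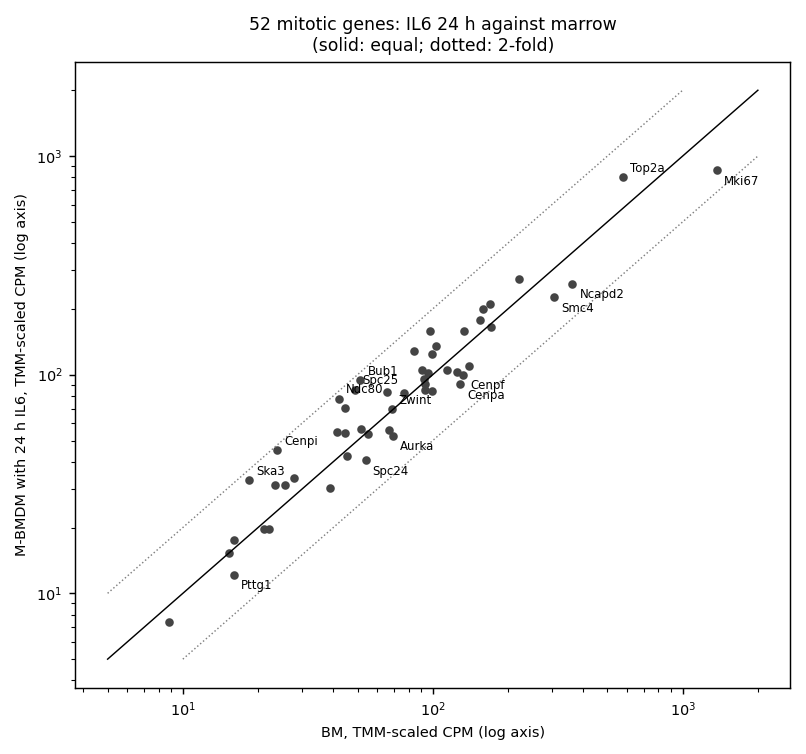
Scaled CPM of each of the 52 members (points) in BM (x axis) and M-BMDM_24h (y axis), both on log axes; the solid line marks equal levels and the dotted lines 2-fold. All points lie between the dotted lines, from Mki67 below (log2 ratio -0.67) to Cenpi above (0.92).

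The third comparison is between the 2 cytokines. Members tended to be higher in GM-BMDM than in M-BMDM, by less than they differed from BM. In total, 6 members were counted higher (Cdca5 1.35, Esco2 1.28, Aurkb 1.14, Spc24 1.10, Ncaph 1.07 and Ncapd2 1.02 in log2 ratio) and none lower. Over all genes, 7.7% were counted higher. The median was 0.49 against 0 for all genes, and 43 of 52 ratios were above 1, beside 7359 of all 14719 genes. With total counts this became 38, since Aurka, Aspm, Ect2, Sgo2a and Cdca2 turned below 1, and with upper-quartile factors 46. Cenpk (1.89) and Ska1 (1.86) had the largest log2 ratios but did not reach 5 scaled CPM, and Espl1 (-0.43, interval -0.64 to -0.22) had the lowest. The libraries with 3 h of IL6 gave 9 members counted higher and a median of 0.47, beside 7.53% of all genes counted higher. In both pairs of libraries 42 members were higher in GM-BMDM and 4 were lower. The share of all genes with the same direction in both pairs is not given here.

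A model over all 6 libraries, with terms for BM, cell type, 3 h and 24 h of IL6, used the agreement of these pairs as its only measure of spread (1 residual degree of freedom, edgeR's quasi-likelihood test with Benjamini-Hochberg adjustment at 0.05). Its estimated biological coefficient of variation, 6.45%, rests on libraries that may be close technical relatives, so its p-values may be too small. In it, 36 members rose and 2 fell in GM-BMDM relative to M-BMDM, while 28.9% of all genes rose and 27.4% fell. Each SE given is the size of the log2 change divided by the square root of the test's F statistic. It reflects a spread pooled mostly across genes, not one measured for each gene. Ncapd2 rose by 1.08 on the log2 scale (SE 0.0941, adjusted p = 3.11e-26), Aurkb by 1.28 (SE 0.125, adjusted p = 1.81e-21) and Bub1b by 1.01 (SE 0.104, adjusted p = 7e-20). Espl1 (-0.37, SE 0.109, adjusted p = 0.00183) and Zwint (-0.22, SE 0.0901, adjusted p = 0.0323) fell. By group, 7 of 8 inner kinetochore genes, 4 of 4 passenger genes, 4 of 5 checkpoint genes and 3 of 4 cytokinesis genes rose. Smaller shares rose among outer kinetochore genes (7 of 11, with 1 that fell), condensin and chromosome genes (5 of 8), kinases and spindle factors (3 of 6) and cohesion genes (3 of 6, with 1 that fell). With the coefficient of variation set at 0.2, 15 members rose and none fell. Markers of other cells moved with this contrast. In the model 5 of 8 stem and progenitor markers rose, with a summed level of 106 scaled CPM in GM-BMDM against 19.8 in M-BMDM, most of it Kit (83.4 against 4.89). Of the 8 neutrophil precursor markers 5 rose (summed level 7.32 against 0.860), and of the 10 macrophage markers 2 rose and 7 fell (3736 against 9055). Of the 10 erythroid markers 2 rose and 2 fell, and no B lineage marker was called. Their part in the members' ratios was not tested.

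**Figure D4:**
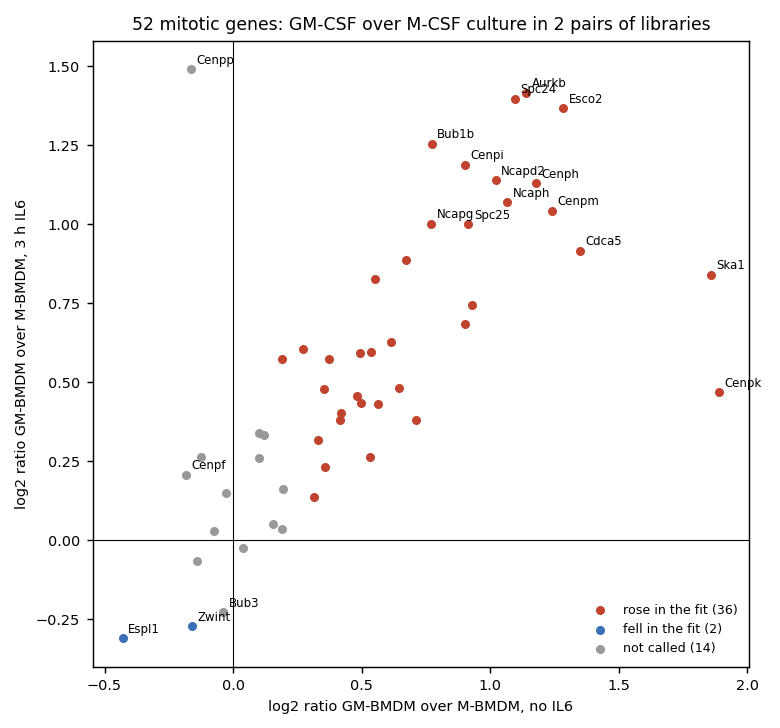
Log2 ratio of GM-BMDM over M-BMDM for each member without IL6 (x axis) and after 3 h of IL6 (y axis); red points rose, blue points fell and grey points were not called in the 6-library model. Of the 52 points, 42 lie above 0 on both axes and 4 below 0 on both.

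The fourth comparison is the early response to IL6. After 3 h, no member was counted higher or lower in either culture. The share of all genes counted was 0.0611% higher and 0.183% lower in M-BMDM, and 0.0408% higher and 0.0747% lower in GM-BMDM, so few genes of any kind reached 2-fold. The members' median log2 ratio was -0.06 in M-BMDM and -0.02 in GM-BMDM. Counting intervals lay above 1 for 5 members and below 1 for 10 in M-BMDM, and above 1 for 8 and below 1 for 7 in GM-BMDM. The share of all genes with such intervals is not given here, so these counts cannot be read as particular to the members. Cenpk (1.34) and Cenpp (-1.24) had the highest and lowest log2 ratios in M-BMDM, on 9 to 27 counts, and Ska2 (0.42) and Cenpq (-0.45) in GM-BMDM. The other 4 members of M-BMDM with intervals above 1 were Cdca5 (0.39), Bub3 (0.15, interval 0.05 to 0.26), Incenp (0.14, interval 0.02 to 0.25) and Zwint (0.12, interval 0.02 to 0.22). The 10 with intervals below 1 in M-BMDM included Cenpf (-0.61, interval -0.83 to -0.38), Plk4 (-0.47, interval -0.72 to -0.21) and Cenpe (-0.34). Cenpf is a kinetochore and nuclear envelope protein, and Plk4 is the kinase of centriole duplication. In GM-BMDM intervals lay below 1 for Nuf2 (-0.37) and Mki67 (-0.36), among others. They lay above 1 for Aurka (0.33, interval 0.13 to 0.53) and Prc1 (0.27), among others. Mki67 was also lower after 3 h in M-BMDM (111 against 126 scaled CPM), as was Smc4 (48.6 against 58.1). In both cultures 13 members were higher and 20 were lower, and in the others the directions differed. These 2 counts have no share of all genes beside them.

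For the 3 h term of the model, no member rose and 1 fell, beside 0.177% of all genes that rose and 0.788% that fell. The 1 was Cenpf (-0.41, SE 0.114, adjusted p = 0.0361), a call that was lost with total counts, without the filter, with 4 libraries, with DESeq2, with limma-voom and at a coefficient of variation of 0.2. At an unadjusted p under 0.05 there were 11 members (8.25% of all genes were under it), and DESeq2 and limma-voom also found no member that rose. In the same model, 50 members rose at 24 h (24.2% of all genes rose), and 50 fell from BM to M-BMDM and 50 from BM to GM-BMDM (37.9% and 38.7% of all genes fell). Zwint and Pttg1 were called in none of these 3 contrasts. Bub3 rose by 0.45 at 24 h (SE 0.116, adjusted p = 0.000346). The 24 h and BM contrasts each rest on 1 library, for which the model takes the spread seen between the 3 h pairs.

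Other genes of the division cycle were taken from 7 lists with no member among them. At 24 h of IL6 over M-BMDM, 12 of 12 mitotic kinesins were counted higher (median log2 ratio 2.77), beside 8.06% of all genes. They were led by Kif15 (3.80), Kif11 (3.32), which pushes the spindle poles apart, and Kif22 (3.16). Among genes of mitotic entry around Cdk1, 12 of 13 were higher (2.32), led by Mastl (3.18), a kinase that shuts off the opposing phosphatase, cyclin A2 (Ccna2, 3.01) and Melk (2.98). S phase genes were higher in 21 of 22 cases (3.20), led by Pole (4.82), Mcm7 (4.26) and Cdc6 (4.26). Among other kinetochore genes 16 of 22 were higher (2.20), led by Oip5 (4.11), Kntc1 (3.76) and Cenpu (3.50). None of these 4 lists had a gene counted lower, beside 6.26% of all genes.

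In the remaining 3 lists smaller shares were counted, again beside 8.06% of all genes counted higher. Of 11 genes of MuvB, DREAM and FoxM1, regulators that act on CHR promoters, 7 were counted higher (median 1.47), led by Mybl2 (4.27), Foxm1 (3.54) and Rbl1 (2.81). Other condensin and cohesin genes were higher in 6 of 12 cases (1.02), led by the condensin II subunits Ncapd3 (3.07) and Ncapg2 (2.62). The anaphase-promoting complex list had 4 of 19 higher (0.73): its inhibitor Fbxo5 (2.93), its E2 enzyme Ube2c (1.99), its subunit Anapc5 (1.49) and its activator Cdc20 (1.46). In M-BMDM against BM, 17.6% of all genes were counted lower. In the same lists this held for 12 of 12 kinesins, 13 of 13 entry genes, 20 of 22 S phase and 17 of 22 kinetochore genes. It also held for 8 of 11 MuvB, 7 of 12 condensin and cohesin, and 6 of 19 anaphase-promoting complex genes. Cenpb, a centromere DNA-binding protein (278 against 62.0 scaled CPM), and the anaphase-promoting complex subunit Anapc10 (12.8 against 5.64) were counted higher in M-BMDM. The share of all genes counted higher there was 15.4%. After 3 h of IL6 no gene of the 7 lists was counted in either culture. Between the cytokines, S phase genes had 8 of 22 counted higher in GM-BMDM (median 0.88), beside 7.7% of all genes. The other condensin and cohesin genes had none and a median of -0.35. CHR was found in 10 of 11 kinesin windows (90.9%) and in 17.6% of S phase windows, against 17.9% of all windows. An E2F pattern was found in 47.1% of S phase windows, against 1.56% of all.

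**Figure D5:**
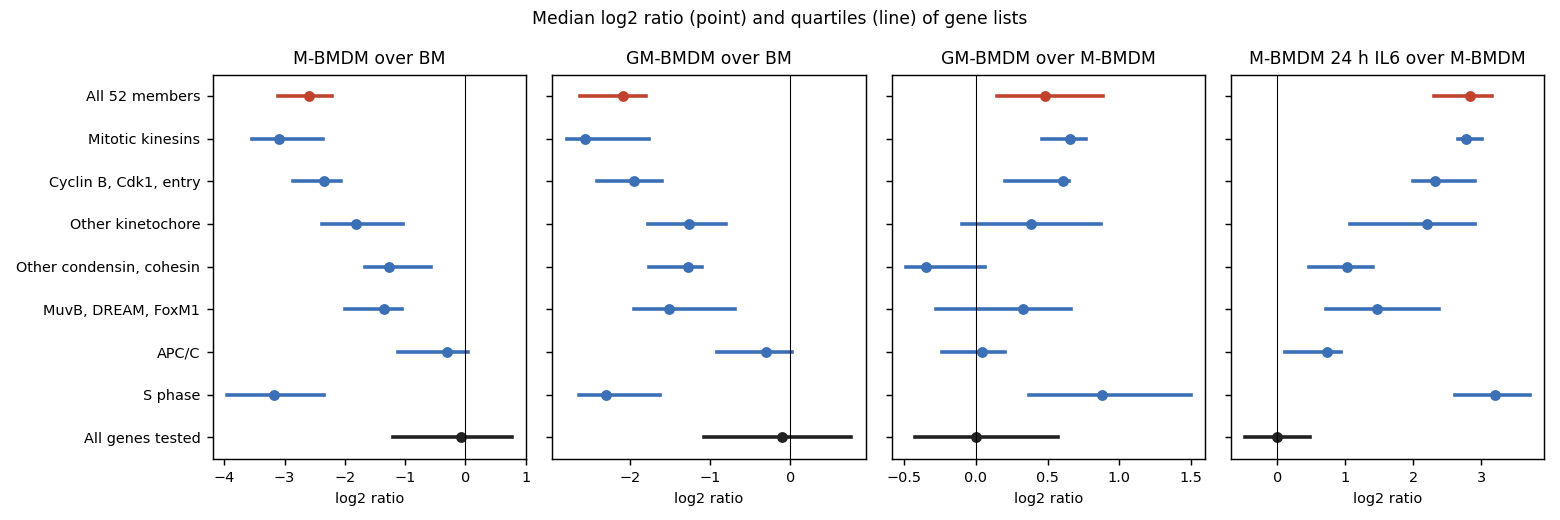
Median log2 ratio (points) and quartiles (lines) of the 52 members (red), 7 other division lists (blue) and all genes tested (black) in 4 comparisons. At 24 h of IL6 the members' median of 2.84 lies among those of kinesins (2.77) and S phase genes (3.20), and the anaphase-promoting complex (APC/C) list lies at 0.73.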

How the data were processed

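RNA was measured in 6 libraries, 1 per group, as gene-level estimated counts that the authors deposited. Per the submitters' processing notes, HISAT2, StringTie and DESeq2 were used with build GRCm38; their roles and versions were not given in the sources used here, nor was any use of strand. Of 56278 rows, 742 without a gene name (0.240% to 0.522% of counts) were left out, and counts were rounded to whole numbers.

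Genes with at least 1 CPM in 1 library were kept (14719) and scaled by TMM. Ratios between libraries have exact conditional binomial 95% intervals, which cover counting error only. The 6-library model used edgeR 4.0.16 (R 4.3.3); alternatives used DESeq2 1.42.0, limma 3.58.1, other scalings, filters, fold and level limits. The methods were tested on simulated data. Groups came from sample titles. Promoter windows are from RefSeq (GRCm38.p6). Gene positions are also GRCm38.

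The members and lists were chosen with earlier results of these data known. Values in all 6 libraries are given for the 2 most abundant members of each group by mean scaled CPM; the members with the highest and lowest ratio, those not counted, and up to 3 genes per other list with the largest counted ratios are named. Further members, and Cdc20, Cenpb and Anapc10, were named after their values were seen.

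Single values of some marker genes are not reported here.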

Additional observations from a re-analysis of the deposited data

Results flagged for a closer look

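The checkpoint gene Bub1b was singled out because its counting intervals lay on opposite sides of equality in the 2 cultures after 3 h of IL6. Its log2 ratio of 3 h of IL6 over none was -0.248 in M-BMDM (interval -0.46 to -0.04) and 0.235 in GM-BMDM (interval 0.09 to 0.38). It was the 1 member of 52 with such opposite intervals, and each value compares 1 library with 1 library. The share of all genes with opposite intervals is not given here, so how unusual Bub1b is cannot be judged. The difference between the cultures was not tested, because their difference is the only measure of spread in the model.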

How the results depend on the processing

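Of 194 values under other settings, 174 kept their direction and stayed within 1.5 times a count or within the limits set for a median or share, 20 moved, and none reversed. Most of these values are counts, which cannot change sign, and many were 0 under every setting. The 174 is thus no measure of how stable the other values are. The counts of 49 members lower in both cultures than in BM and 49 higher at 24 h were among those that did not move. With total counts, the median of GM-BMDM against BM moved to -2.41 and members counted higher in GM-BMDM than in M-BMDM fell from 6 to 2. That count was 16 at a fold limit of 1.5, 0 at 3 and 10 at a level limit of 1 scaled CPM. For 3 h of IL6 in M-BMDM, 1 member was counted lower at a fold limit of 1.5, and 1 higher and 1 lower at 1 scaled CPM. In the model, members that fell in GM-BMDM numbered 1 with DESeq2 size factors, 4 with total counts, 1 without the filter, 0 with DESeq2's Wald test and 0 at a fixed coefficient of variation of 0.2, under which 15 rose. Members that fell at 3 h numbered 0 with total counts, without the filter, with 4 libraries, with DESeq2's Wald test, with limma-voom and at a coefficient of variation of 0.2. The cause was not tested. Chosen after seeing the data were M-BMDM_3h as the 24 h reference and the pair of 3 h libraries for cell type. With 1 library a group, none could be left out. No paired analysis was possible because the labels give no replicate numbers. Depth limits Cenpk, Cenpp and Ska1, which fell below 1 CPM in 1 library each.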
